A study of Mus musculus with 12 samples.

Results

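Complement was examined in mouse adult fibroblasts (MAFs) through 9 genes that together cover its initiating proteases (C1ra, C1s1, Masp1), its central components (C4b, C3), its alternative pathway (Cfb, Cfd) and regulators that restrain it (Serping1, Cd55). The 9 were taken by name from the 49315 genes of the count tables, where each had 1 row in both tables, and 8 of the 9 passed the filter on low counts that left 17416 genes for testing. MAFs are primary cells grown from ear tissue of adult female mice, here C57BL/6 wild-type (WT) mice and mice of the genotype Bmal1-/- (KO), a knockout of the circadian transcription factor BMAL1. Senescence was induced with 20 Gy of X-rays followed by further culture, and the control cells were given sham irradiation. All 4 groups, of 3 libraries each, were kept at 3% oxygen, treated with 100 nM dexamethasone for 2 h to synchronise their clocks and collected 12 h later. All samples therefore carried a glucocorticoid treatment, no untreated group was analysed here, and the number of mice or cultures behind the 3 libraries of a group is not given in the sources used here. P-values thus measure the spread between these libraries, which may be technical. Because each genotype was deposited as its own table, a handling difference between the tables cannot be told apart from a genotype difference.

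Complement is a cascade of plasma and cell surface proteins that tags targets for removal and calls in immune cells. In the classical pathway the protease C1r activates its partner C1s, which cleaves C4 and C2. In the lectin pathway these are cleaved by proteases of the MASP family. Both routes, and the alternative pathway built on factor B and factor D, meet at C3, whose cleavage products coat surfaces and act as signals. Serping1 encodes the C1 inhibitor, which blocks C1r, C1s and the MASPs, and Cd55 encodes decay-accelerating factor, a membrane protein that takes apart the C3 convertases. The liver makes most circulating complement, and fibroblasts are among the cells that produce components locally.

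The RNA-seq libraries held 23923030 to 31736083 counts. TMM factors, which scale library totals, were 0.926 to 0.967 in control and 1.04 to 1.07 in senescent libraries. Arntl, the gene of BMAL1, was lower in all 6 KO libraries (11.8 to 27.4 CPM, counts per 1e6 scaled counts) than in all 6 WT libraries (29.8 to 37.3 CPM). Its group means were 31.5 CPM in WT control, 36.1 in WT senescent, 13.2 in KO control and 26.6 in KO senescent cells, so its transcript was still counted in KO cells and rose there with senescence (log2 fold change 1.02, edgeR adjusted p 1.96e-09). The counts are per gene, and the deleted part of the gene was not measured on its own. The 8 fibroblast markers were all detected, with summed levels of 19891 to 20686 CPM in the WT control group, 9569 to 9955 in WT senescent, 24814 to 26172 in KO control and 11483 to 11880 in KO senescent cells. The collagens Col1a1, Col1a2 and Col3a1 carried most of this sum and fell, whereas 4 of the 8 markers rose in WT senescence and 2 in KO senescence, Dcn among them (28.9 to 298.6 CPM in WT and 25.0 to 271.8 CPM in KO, group means). The 6 chondrocyte markers were also all detected, and their sum moved with senescence and genotype, at 6941 to 8591 CPM in the WT control group, 1837 to 2132 in WT senescent, 4534 to 6189 in KO control and 581 to 675 in KO senescent cells. Col2a1 and Acan carried most of this sum. In WT senescence 5 of the 6 fell and 1 rose, Comp (group means 55.9 to 84.4 CPM), and in KO senescence 5 fell and 0 rose. The 9 macrophage markers summed to 8.66 to 15.7 CPM in WT control, 13.8 to 16.6 in WT senescent, 8.64 to 13.1 in KO control and 10.2 to 15.2 CPM in KO senescent libraries, of which Ptprc made 3.24 to 9.52 CPM. Of them Lyz2 rose in both genotypes (group means 0.35 to 1.96 CPM in WT and 0.19 to 2.86 CPM in KO) and Cd68 in WT cells (1.75 to 3.00 CPM), and Adgre1 and Tyrobp reached at most 0.18 and 0.13 CPM. The 6 keratinocyte markers summed to 10.4 to 15.0 and 20.5 to 23.8 CPM in WT control and senescent libraries and to 11.8 to 12.5 and 18.6 to 20.2 CPM in those of KO, and 3 of them rose in each genotype (Krt5, Krt10 and Dsp), with 1 falling in KO cells. The 6 adipocyte markers (31.5 to 70.7 CPM in sum) were lower in sum in senescent than in control libraries of each genotype, with 2 rising and 1 falling in WT and 3 rising and 1 falling in KO senescence, and of the 5 endothelial markers (2.21 to 8.56 CPM in sum) 1 rose in each genotype. The part of these marker lists in the results was not tested. In such bulk samples a change in the number of producing cells cannot be told apart from a change in RNA per cell.

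The promoters of the members that rose or differed together are shown first, because BMAL1 is known to bind E-boxes and the study centred on AP-1 sites. RefSeq windows on GRCm38.p6, from 250 bases before to 50 bases after a transcript start, were matched for 5 of the 9 members (C3, C1ra, C1s1, Cfd and Cd55) and not for C4b, Cfb, Serping1 and Masp1. Both strands were searched for CACGTG (E-box), TGACTCA (AP-1), TTCNNNGAA (GAS, the STAT element) and TTGCNNAA (C/EBP type), and the sense strand for TATAAA. Capitals mark matches, no match overlaps another, and the windows are written on the strand of the gene, at chr17:57228087-57228386 (minus) for C3, chr6:124512371-124512670 (plus) for C1ra, chr6:124542310-124542609 (minus) for the first of 2 starts of C1s1 and chr1:130462695-130462994 (minus) for Cd55.
C3: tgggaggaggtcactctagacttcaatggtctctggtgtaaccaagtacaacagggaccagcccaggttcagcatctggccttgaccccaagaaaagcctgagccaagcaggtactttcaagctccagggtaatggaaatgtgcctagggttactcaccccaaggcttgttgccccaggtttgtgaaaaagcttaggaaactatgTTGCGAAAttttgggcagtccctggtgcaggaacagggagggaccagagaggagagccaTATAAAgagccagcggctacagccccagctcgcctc
C1ra: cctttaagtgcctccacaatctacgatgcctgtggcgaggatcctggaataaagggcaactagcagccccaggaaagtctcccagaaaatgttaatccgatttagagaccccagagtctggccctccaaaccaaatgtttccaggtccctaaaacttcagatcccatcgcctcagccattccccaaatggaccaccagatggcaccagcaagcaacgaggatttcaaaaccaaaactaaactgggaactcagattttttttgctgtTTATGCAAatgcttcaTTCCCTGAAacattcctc
C1s1: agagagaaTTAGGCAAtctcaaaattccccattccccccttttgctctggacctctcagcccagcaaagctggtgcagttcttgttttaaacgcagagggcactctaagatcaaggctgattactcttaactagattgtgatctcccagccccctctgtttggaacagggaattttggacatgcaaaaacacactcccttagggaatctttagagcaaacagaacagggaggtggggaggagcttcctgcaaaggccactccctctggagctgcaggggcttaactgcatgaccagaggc
Cd55: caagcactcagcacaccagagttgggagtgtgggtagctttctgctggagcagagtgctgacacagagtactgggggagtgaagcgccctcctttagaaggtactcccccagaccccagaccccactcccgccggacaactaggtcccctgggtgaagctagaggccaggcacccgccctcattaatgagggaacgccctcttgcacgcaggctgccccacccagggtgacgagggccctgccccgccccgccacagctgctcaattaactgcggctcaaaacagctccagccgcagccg

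The C3 window held a C/EBP-type match that begins 45 bases before the start and a TATAAA 14 bases after it. C1ra held a C/EBP-type match 16 bases and a GAS match 32 bases after its RefSeq start. The gene model of C1ra begins further upstream, at 124512405, so most of this window, with both matches, lies inside that model. The region before the start of the model was largely not searched. C1s1 held a C/EBP-type match 242 bases before its start, and the Cd55 window held none of the searched motifs. The letters of the E-box and of the AP-1 motif were in none of the windows of the 5 members. For comparison, of 32841 mouse promoter windows of this length, 7.15% held the E-box, 5.2% the AP-1 motif, 8.3% the GAS, 10.8% the C/EBP type and 8.32% TATAAA. A match describes letters and was not tested as a binding site.

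Senescence of WT cells was the first comparison, which asked how the genes respond to irradiation where BMAL1 is present. All 8 tested members rose, by 1.78-fold (Masp1) to 14.1-fold (Serping1). Their libraries did not overlap between the groups for any of the 8, where 33.4% of all genes tested were higher without overlap. At an adjusted p under 0.05, 29.2% of all genes tested were higher and 27.0% lower. With the study's thresholds, an adjusted p under 0.05 and a log2 fold change over 1 in size (a differentially expressed gene, DEG), 7 of the 8 members were higher DEGs against 11.6% of all genes, and the remaining one was Masp1. The median log2 fold change was 1.47 over the members and 0.02 over all genes.

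In KO cells the same 8 members rose with senescence, by 1.23-fold (C1ra) to 6.19-fold (Serping1), where 28.5% of all genes were higher and 28.6% lower. Of them 3 were DEGs (C4b, Cfb and Serping1), against 11.2% of all genes, and 7 had no overlap between control and senescent libraries, against 30.7%. C1ra was the member whose libraries overlapped. The median log2 fold change was 0.97 over the members and −0.003 over all genes. The test of the difference between the responses, the interaction, is the KO log2 fold change less that of WT. All 8 estimates were negative, 4 passed the test (C1ra, C1s1, Cd55 and Serping1) and 2 of these were DEGs (C1s1 and Serping1). Over all genes 11.7% were lower and 9.24% higher in the interaction, with 2.51% as lower DEGs, and 47.0% of the estimates were positive. The median interaction was −0.69 over the members and −0.03 over all genes.

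**Figure D1:**
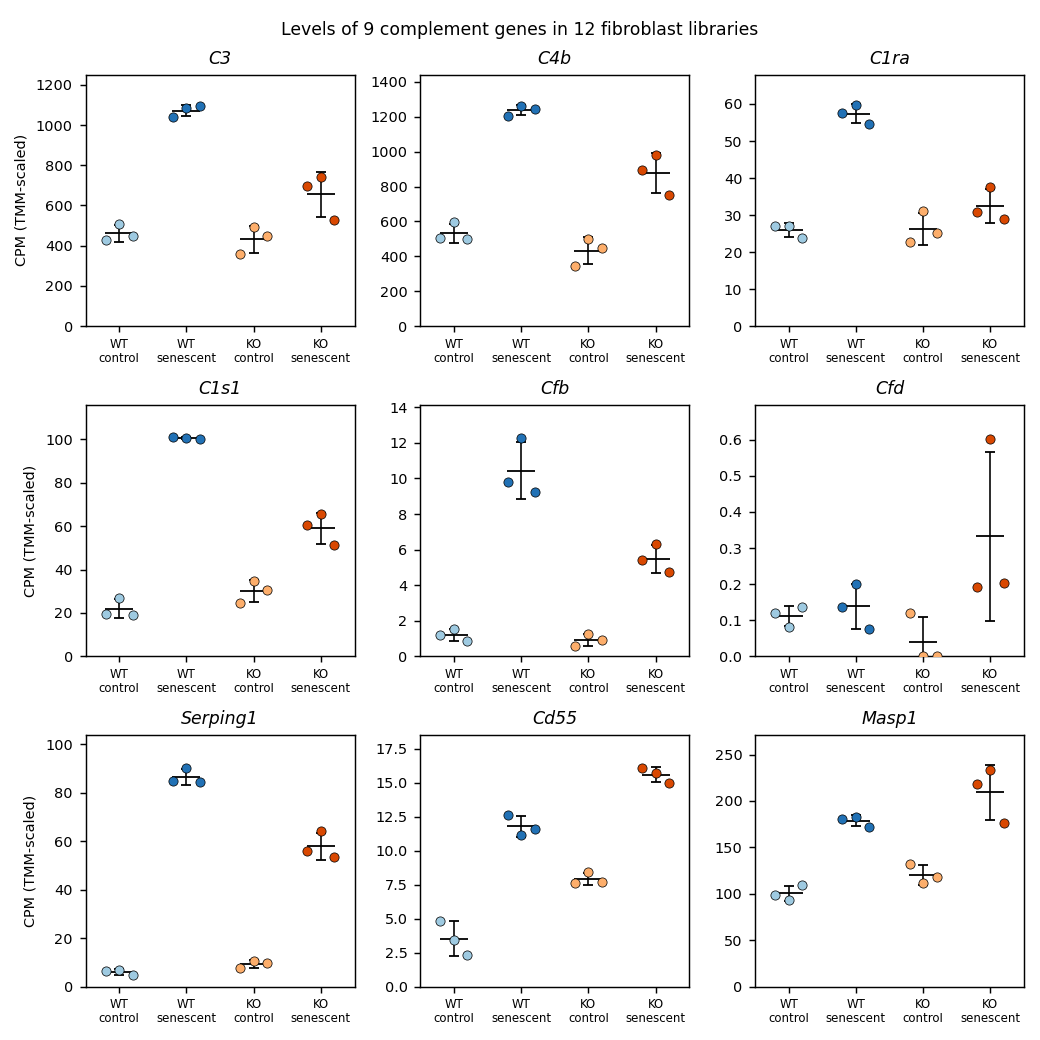
Level of each of the 9 members (CPM on TMM-scaled totals, linear axis from 0, 1 scale per gene) in the 12 libraries, with points for libraries, wide bars for group means and error bars for 1 SD (n = 3). In 8 panels WT senescent libraries lie above all WT control libraries, KO senescent libraries lie between them for C3, C4b, C1ra, C1s1, Cfb and Serping1, and Cfd stays at or below 0.60 CPM.

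Among the proteases that start the cascade, C1s1 and C1ra differed most between the genotypes. C1s1 (ENSMUSG00000038521, GRCm38 chromosome 6, 124530345 to 124542359, minus strand, 12 exon blocks) encodes C1s, which cleaves C4 and C2. Replicates 1, 2 and 3 of WT control cells held 19.7, 26.9 and 19.0 CPM, and those of WT senescent cells 101.1, 100.8 and 100.02 CPM. In KO cells it measured 24.6, 34.8 and 30.5 CPM in control and 60.3, 65.5 and 51.2 CPM in senescent libraries. The 3 WT senescent libraries lay far above every other library, the KO senescent libraries came next, and the control groups of the genotypes overlapped. The rise was 4.59-fold in WT cells (log2 fold change 2.20, SE 0.15, edgeR adjusted p 3.07e-07) and 1.96-fold in KO cells (0.97, SE 0.15, edgeR adjusted p 0.000192). The interaction was −1.23 (SE 0.21, edgeR adjusted p 0.00251) and stayed between −1.40 and −1.10 with any 1 library left out. The KO rise crossed the DEG fold when KO control replicate 2 was left out (1.10), and likewise KO senescent replicate 3 (1.06). Of its exon length, 18.4% lies opposite the antisense gene Gm16567, which had 0 counts in all libraries.

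C1ra (ENSMUSG00000055172, chromosome 6, 124512405 to 124523443, plus strand, 11 exon blocks) encodes C1r, which activates C1s, and lies 6901 bases from C1s1 on the opposite strand. Its levels were 27.1, 27.1 and 23.8 CPM in the WT control group, 57.5, 59.8 and 54.7 CPM in WT senescent, 22.7, 31.0 and 25.1 CPM in KO control and 30.7, 37.6 and 29.0 CPM in KO senescent libraries. WT senescent libraries stood above all others, and the other 3 groups covered a narrow range in which the KO groups overlapped. C1ra rose 2.21-fold in WT cells (log2 fold change 1.14, SE 0.11, edgeR adjusted p 1.47e-07) and 1.23-fold in KO cells (0.30, SE 0.11, edgeR adjusted p 0.0274). The KO rise did not pass without KO control replicate 1 (0.20, edgeR adjusted p 0.119), without KO control replicate 3 (0.26, 0.0979), without KO senescent replicate 2 (0.18, 0.154) or with the KO libraries fitted alone (0.31, 0.0604). The interaction was −0.84 (SE 0.15, edgeR adjusted p 0.00125) and passed in every fit that left out a library. Stretches of 150 bases shared with C1rb made up 26.3% of the longest C1ra transcript, and only uniquely mapped reads were counted.

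Masp1 (ENSMUSG00000022887, chromosome 16, 23449417 to 23520815, minus strand, 18 exon blocks), whose products include a protease of the lectin pathway, had the smallest interaction estimate of the members. It measured 98.7, 93.7 and 109 CPM in the WT control group, 180.8, 183 and 172 CPM in WT senescent, 132, 112 and 118 CPM in KO control and 218, 234 and 177 CPM in KO senescent libraries. Senescent libraries of each genotype stood above its control libraries, every KO control library was above every WT control library, and the senescent groups overlapped. Masp1 rose 1.78-fold in WT cells (log2 fold change 0.83, SE 0.09, edgeR adjusted p 3.04e-06) and 1.74-fold in KO cells (0.80, SE 0.09, edgeR adjusted p 4.25e-06). The interaction was −0.03 with a 95% interval, not adjusted for the number of genes, of −0.32 to 0.25 (edgeR adjusted p 0.897). It turned positive, to 0.075 at most, when WT control replicate 2, KO control replicate 1 and KO senescent replicate 3 were each left out.

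C4b and C3 were the most abundant members and moved alike in WT cells. C4b (ENSMUSG00000073418, chromosome 17, 34728380 to 34743882, minus strand, 40 exon blocks) encodes C4, the substrate of C1s and part of the classical C3 convertase. Its levels were 503, 595 and 498 CPM in the WT control group, 1206, 1262 and 1241.5 CPM in WT senescent, 347, 500.2 and 450.5 CPM in KO control and 895, 978 and 752 CPM in KO senescent libraries. The WT senescent group was highest, the KO senescent group followed without overlap, and the control groups overlapped. C4b rose 2.32-fold in WT cells (log2 fold change 1.22, SE 0.14, edgeR adjusted p 3.77e-05) and 2.02-fold in KO cells (1.02, SE 0.14, edgeR adjusted p 0.000137). The interaction was −0.20 with an unadjusted 95% interval of −0.64 to 0.24 (edgeR adjusted p 0.529). The KO rise dropped under the DEG fold when KO control replicate 1 was left out (0.88), and likewise KO senescent replicate 2 (0.93). Its near copy C4a shared 8.26% of the 150-base stretches of C4b.

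C3 (ENSMUSG00000024164, chromosome 17, 57203970 to 57228136, minus strand, 42 exon blocks), the component on which all routes meet, measured 426, 506 and 450.1 CPM in control libraries of WT cells and 1039.7, 1084 and 1092 CPM in their senescent libraries. In KO cells it measured 357, 491 and 447 CPM in control and 697, 740.4 and 529 CPM in senescent libraries. All WT senescent libraries exceeded all KO senescent libraries, and the control groups overlapped. The rise was 2.33-fold in WT cells (log2 fold change 1.22, SE 0.14, edgeR adjusted p 4.96e-05) and 1.52-fold in KO cells (0.60, SE 0.14, edgeR adjusted p 0.00493). The interaction of −0.62 (SE 0.20, unadjusted 95% interval −1.07 to −0.16) missed the threshold with a edgeR adjusted p of 0.0592. It passed with KO control replicate 1 left out (−0.74, edgeR adjusted p 0.0167), with KO senescent replicate 2 left out (−0.71, 0.0354), with the stricter filter on low counts (−0.61, 0.0496) and under DESeq2 (−0.59, DESeq2 adjusted p 0.0226). C3 and C4b together made up 78.3% to 87.3% of the counts of the 9 members in every library.

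The alternative pathway was represented by Cfb and Cfd. Cfb (ENSMUSG00000090231, chromosome 17, 34856374 to 34862518, minus strand, 17 exon blocks) encodes factor B, the catalytic part of the alternative C3 convertase. Its levels as counted were low, at 1.21, 1.55 and 0.86 CPM in the WT control group, 9.79, 12.3 and 9.25 CPM in WT senescent, 0.60, 1.25 and 0.90 CPM in KO control and 5.40, 6.31 and 4.72 CPM in KO senescent libraries. Senescent libraries of either genotype exceeded all control libraries, and those of WT exceeded those of KO. Cfb rose 8.60-fold in WT cells (log2 fold change 3.11, SE 0.23, edgeR adjusted p 2.29e-10) and 5.87-fold in KO cells (2.55, SE 0.24, edgeR adjusted p 9.65e-09), and its interaction was −0.55 (unadjusted 95% interval −1.27 to 0.17, edgeR adjusted p 0.285). The annotation places 79.5% of its exon length under a second gene of the same strand, Gm20547, which had 0 counts in all libraries. The level of Cfb thus depends on how reads shared by both genes were counted, and it is underestimated if they were left out. Cfd (ENSMUSG00000061780, chromosome 10, 79890853 to 79892655, plus strand), which encodes factor D, the protease that cleaves factor B, had at most 0.60 CPM and was at 0 in KO control replicates 2 and 3. With 3 counts, or 0.101 to 0.135 CPM, as the floor of detection, Cfd was at or near the floor in most libraries and was not tested.

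Of the regulators, Serping1 had the largest rise of all members. Serping1 (ENSMUSG00000023224, chromosome 2, 84765387 to 84775444, minus strand, 8 exon blocks) went from 6.43, 7.04 and 4.78 CPM in WT control to 84.8, 90.2 and 84.4 CPM in WT senescent libraries. In KO cells it went from 7.64, 10.7 and 9.57 CPM to 55.9, 64.3 and 53.4 CPM. All 4 groups stood apart, in the rising order of WT control, KO control, KO senescent and WT senescent cells. The rise was 14.1-fold in WT cells (log2 fold change 3.82, SE 0.13, edgeR adjusted p 2.75e-13) and 6.19-fold in KO cells (2.63, SE 0.12, edgeR adjusted p 1.15e-11). The interaction was −1.19 (SE 0.17, edgeR adjusted p 0.000233) and stayed between −1.32 and −1.06 with any 1 library left out.

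Cd55 (ENSMUSG00000026399, chromosome 1, 130439027 to 130462744, minus strand, 10 exon blocks) was higher in KO than in WT cells in both states. It measured 4.82, 3.46 and 2.30 CPM in the WT control group, 12.6, 11.2 and 11.6 CPM in WT senescent, 7.60, 8.45 and 7.72 CPM in KO control and 16.1, 15.7 and 14.98 CPM in KO senescent libraries. The 4 groups did not overlap and rose in the order of WT control, KO control, WT senescent and KO senescent cells. Cd55 rose 3.32-fold in WT cells (log2 fold change 1.73, SE 0.16, edgeR adjusted p 1.34e-08) and 1.96-fold in KO cells (0.97, SE 0.15, edgeR adjusted p 9.37e-06). The interaction was −0.76 (SE 0.22, edgeR adjusted p 0.0186) and missed the threshold without KO control replicate 2 (−0.71, edgeR adjusted p 0.0506), a fit in which the KO rise reached 1.02. Without WT control replicate 1 the interaction was −1.05, past the DEG fold.

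**Figure D2:**
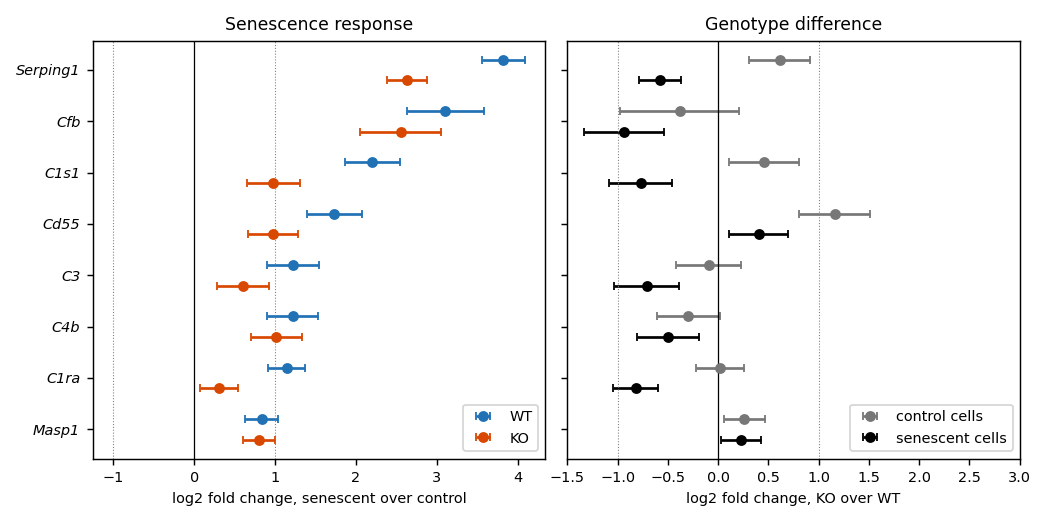
Log2 fold changes of the 8 tested members with unadjusted 95% intervals (edgeR QL fit over 12 libraries), for senescent over control cells within WT and KO (left) and for KO over WT within control and senescent cells (right), with dotted lines at a log2 fold change of 1 in either direction. Serping1 and C1s1 show the widest gap between the genotypes on the left (3.82 against 2.63 and 2.20 against 0.97), and Masp1 the narrowest.

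The genotypes were then compared within each state. In control cells, 2 of the 8 members were higher in KO, Serping1 (log2 fold change 0.61, SE 0.14, edgeR adjusted p 0.00943) and Cd55 (1.16, SE 0.17, edgeR adjusted p 6.55e-05), the latter a DEG. Over all genes 8.07% were higher, 4.96% lower and 1.36% higher DEGs. Without WT control replicate 3, the lowest for Cd55, the Cd55 difference was 0.94, under the DEG fold. The other 6 members did not pass and ranged from −0.38 (Cfb) to 0.45 (C1s1, edgeR adjusted p 0.0928). C1s1 passed without WT control replicate 2 (0.63, edgeR adjusted p 0.0109), without KO control replicate 1 (0.58, 0.0247), with no filter on low counts (0.46, 0.016) and under DESeq2 (0.45, DESeq2 adjusted p 0.00616). Masp1, at 0.26 (edgeR adjusted p 0.0904), passed without KO senescent replicate 2 (edgeR adjusted p 0.0421) or 3 (0.00807), with no filter (0.000287) and under DESeq2 (DESeq2 adjusted p 0.0372).

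In senescent cells Serping1 and the tested components other than Masp1 were lower in KO. This held for 6 of the 8 members, C1ra, C1s1, C3, C4b, Cfb and Serping1, whose KO libraries all lay below all WT libraries, where 11.8% of all genes tested were lower and 21.0% were lower without overlap. The log2 fold changes were −0.93 for Cfb (SE 0.19, edgeR adjusted p 0.00109), −0.82 for C1ra (SE 0.11, edgeR adjusted p 3.42e-05) and −0.77 for C1s1 (SE 0.14, edgeR adjusted p 0.00251). They were −0.71 for C3 (SE 0.14, edgeR adjusted p 0.00568), −0.58 for Serping1 (SE 0.10, edgeR adjusted p 0.000459) and −0.50 for C4b (SE 0.14, edgeR adjusted p 0.0273). No member reached the DEG fold, against 2.19% of all genes as lower DEGs, but Cfb reached it without WT senescent replicate 3 (−1.01) or KO senescent replicate 2 (−1.05). C4b did not pass with no filter on low counts (edgeR adjusted p 0.0639), nor when WT senescent replicate 1, 2 or 3 or KO senescent replicate 1 or 3 was left out (0.0546 to 0.102).

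Cd55 was the member higher in KO senescent cells (log2 fold change 0.40, SE 0.14, edgeR adjusted p 0.0461), where 11.9% of all genes were higher. Its difference missed the threshold without any 1 of the 6 senescent libraries or without KO control replicate 2 or 3 (0.0521 to 0.158), with unscaled library totals (0.083) and with the stricter filter (0.052). Masp1, at 0.23 (edgeR adjusted p 0.0915), passed without KO senescent replicate 3 (0.34, edgeR adjusted p 0.00152), with no filter (0.00174) and under DESeq2 (DESeq2 adjusted p 0.0237). Over the members the median difference was −0.64 in senescent and 0.14 in control cells, beside −0.02 and 0.006 over all genes.

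The same libraries were low or high for most members. KO senescent replicate 3 was the lowest of its group for 8 of the 8 tested members and KO control replicate 1 for 7, while KO control replicate 2 and KO senescent replicate 2 were each the highest for 7. WT control replicate 3 was the lowest for 6. The shares of all tested genes for which these libraries were lowest or highest were not computed, so the counts do not set the members apart from other genes. The summed level of the 9 members was 1087 to 1261 CPM in the WT control group, 2693 to 2803 in WT senescent, 899 to 1189 in KO control and 1611 to 2142 in KO senescent libraries, or 0.0845% to 0.301% of all counts. Left out 1 at a time, these libraries moved the calls named above, and the rises with senescence of the 7 tested members other than C1ra passed in all 12 such fits of either genotype.

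Ratios taken within a library do not depend on its scaling. C1s1 counts per C1ra count were 0.730 to 0.994 in WT control, 1.69 to 1.83 in WT senescent, 1.08 to 1.22 in KO control and 1.74 to 1.96 in KO senescent libraries, so the senescent groups overlapped in this ratio and the control groups did not. Serping1 counts per C1s1 count were 0.251 to 0.326 in WT control and 0.308 to 0.314 in KO control libraries, and 0.839 to 0.895 in WT senescent and 0.926 to 1.04 in KO senescent libraries. This ratio of the inhibitor to its protease was thus higher in senescent cells of both genotypes, with all KO senescent libraries above those of WT. The counts are not corrected for transcript length, so the ratio does not tell which transcript was more abundant. C4b counts per C3 count lay at 1.11 to 1.18 in WT control and 1.14 to 1.16 in WT senescent libraries, and at 0.972 to 1.02 in KO control and 1.28 to 1.42 in KO senescent libraries. These ratios are given as descriptions, with no test; for 3 libraries against 3 a two-sided exact permutation test cannot give a p under 0.1.

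**Figure D3:**
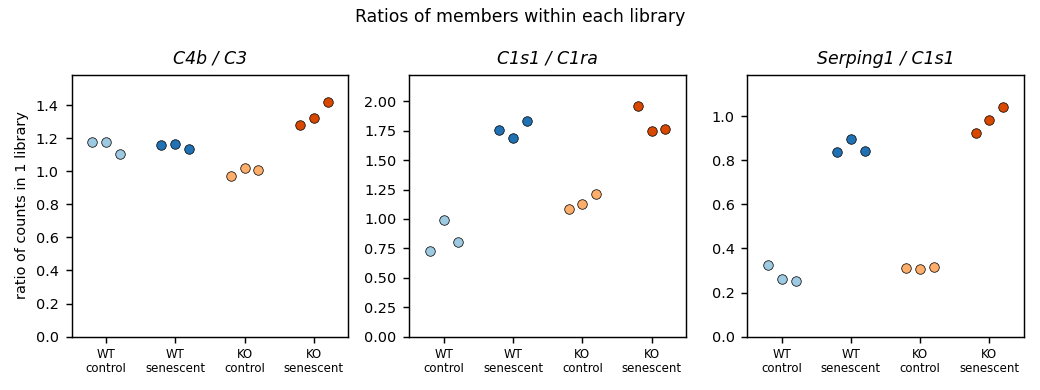
Ratios of raw counts of C4b to C3, C1s1 to C1ra and Serping1 to C1s1 in each of the 12 libraries (linear axes from 0, 1 point per library). The C4b to C3 ratio covers 1.11 to 1.18 and 1.14 to 1.16 in WT control and senescent libraries and is higher in KO senescent than in KO control libraries, and the other ratios are higher in senescent than in control libraries of both genotypes.

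Per kilobase of exon, the order of the members differed between the groups. In WT control cells C4b (93.4 CPM per kb) and C3 (89.6) led with overlapping libraries, followed by Masp1 (10.2), C1ra (8.71) and C1s1 (6.996), of which the last pair overlapped, Serping1 (2.62), Cd55 (0.73), Cfb (0.43) and Cfd (0.12). In WT senescent cells Serping1 (37.2 CPM per kb) and C1s1 (32.2) stood above C1ra (19.2) and Masp1 (18.2), which overlapped, and below C4b (217) and C3 (208), which also overlapped. In KO control cells C3 (83.9 CPM per kb) stood above C4b (76.0), followed by Masp1 (12.3), C1s1 (9.58) and C1ra (8.81), and the libraries overlapped within the pair of C3 and C4b and within that of C1s1 and C1ra. In KO senescent cells C4b (154 CPM per kb) and C3 (127) led, Serping1 (24.9), Masp1 (21.3) and C1s1 (18.9) formed a run of overlapping neighbours, and C1ra followed at 10.9. Cfb was below Cd55 in KO senescent cells (1.94 against 3.21 CPM per kb) and above it in WT senescent cells (3.69 against 2.43). Cfb has 579 bases of exon that it does not share with Gm20547, and reads over these bases were not counted on their own. If all its counts came from them, its level would be 18.0 CPM per kb in WT senescent and 9.46 in KO senescent cells. Divided by unshared exon in the same way, Cd55 would stand at 2.48 and 3.28 CPM per kb in these groups, below Cfb in both. The place of Cfb in this order thus rests on how shared reads were counted. The exon length used joins the exons of all annotated transcripts of a gene. For Masp1 it was 9833 bases, beside 5345 in its longest transcript, and for Cd55 4853 beside 3133. The order, above all the place of Masp1, therefore also rests on the length used.

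Most near copies of the members lay close to the floor. C1rb had 0.03 to 0.48 CPM, C1s2 0 to 0.61 CPM, Masp2 0 to 0.75 CPM and Cd55b 0 to 0.20 CPM, the last not tested. At these levels C1rb rose in WT cells (log2 fold change 1.75, edgeR adjusted p 0.0398), a call lost under DESeq2, with no filter and in 5 of the 12 fits that left out a library (0.0701 to 0.138). C1s2 rose in WT (2.46, edgeR adjusted p 0.0115) and KO cells (1.64, 0.0239), calls lost without WT control replicate 1 (0.0605) and in 4 of the 12 fits that left out a library (KO control replicates 1 and 3, KO senescent replicates 2 and 3, at 0.0536 to 0.112). Masp2, of whose exon length 54.9% lies opposite Tardbp, rose in both genotypes (2.48 and 2.60, edgeR adjusted p 0.00296 and 0.002). C1rb, C1s2 and Masp2 passed the filter on low counts only through senescent libraries, so their rises were partly a condition of being tested. C4a had 0.81 to 2.65 CPM and rose in WT cells (log2 fold change 0.88, SE 0.30, edgeR adjusted p 0.0165), a call that did not pass without WT control replicate 3 (0.66, 0.0741) and without WT senescent replicate 1 (0.74, 0.0774). In KO cells it measured −0.18 (edgeR adjusted p 0.629), with an interaction of −1.06 that missed the threshold (edgeR adjusted p 0.0831). C1rl, a C1r-like protease gene that ends 1761 bases before C1ra, measured 4.86, 6.88 and 3.88 CPM in the WT control group, 11.9, 12.1 and 13.6 CPM in WT senescent, 5.52, 7.74 and 5.28 CPM in KO control and 4.90, 6.84 and 4.52 CPM in KO senescent libraries. It rose in WT cells (log2 fold change 1.26, SE 0.20, edgeR adjusted p 2.78e-05), and in KO cells, where the libraries overlapped, it measured −0.20 (edgeR adjusted p 0.426). Its interaction was −1.46 (SE 0.28, edgeR adjusted p 0.0015), beside −0.84 for C1ra and −1.23 for C1s1, the next genes of that stretch of chromosome 6.

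A list of 47 other complement genes gives the wider pathway, of which 24 passed the filter and 23 did not. In WT senescence 14 of the 24 were higher and 3 lower, with 11 and 2 as DEGs, where 29.2% of all tested genes were higher and 27.0% lower, with 11.6% and 5.90% as DEGs. In KO senescence 8 of the 24 were higher and 2 lower, beside 28.5% and 28.6% of all tested genes, so the share of higher genes was near that of all genes, and the 8 were all DEGs, beside 11.2%. In the interaction 4 of the 24 were lower and 1 was higher, beside 11.7% and 9.24% of all tested genes, which is no result about this list. The median log2 fold change of the 24 was 0.73 in WT and 0.23 in KO senescence, and −0.47 in the interaction. With the stricter filter on low counts 6 of the 13 DEGs in WT cells and 4 of the 8 in KO cells were tested and called. Genes near the floor in control cells, such as Masp2 and C1s2, passed the filter only through senescent libraries. Their rise was partly a condition of being tested, so the counts and medians of this list are partly set by the filter. In this list only genes that fit the naming rule (a DEG in any comparison whose mean reached 1 CPM, or a near copy of a member) are described with values, apart from those said to be chosen later.

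The soluble regulator gene Clu rose in both genotypes. Clu, which encodes clusterin, an inhibitor of the membrane attack complex, measured 30.5, 28.5 and 18.3 CPM in the WT control group, 91.2, 95.5 and 93.97 CPM in WT senescent, 14.2, 14.7 and 13.2 CPM in KO control and 58.3, 54.3 and 50.3 CPM in KO senescent libraries. It rose by 1.86 and 1.95 on the log2 scale (SE 0.14 and 0.15) and was lower in KO cells in both states, by −0.88 in control (edgeR adjusted p 0.00307) and −0.79 in senescent cells (edgeR adjusted p 0.00116).

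C2, the partner of C4 in the classical convertase, is the neighbour of Cfb at a distance of 85 bases. It rose in both genotypes, by 2.10 (SE 0.29) and 1.96 (SE 0.29) on the log2 scale, from group ranges of 0.52 to 0.94 and 0.51 to 1.12 CPM to 3.13 to 3.28 and 2.51 to 3.31 CPM in WT and KO, and 46.9% of its exon length lies under other genes. Csmd1, a large membrane protein gene with complement control domains, rose by 3.69 (SE 0.46) in WT and 2.54 (SE 0.32) in KO cells and was higher in KO in both states, by 2.45 in control (edgeR adjusted p 0.00253) and 1.30 in senescent cells (edgeR adjusted p 0.00221). Its levels were 0 to 0.24 CPM in the WT control group, 1.38 to 1.89 in WT senescent, 0.67 to 0.77 in KO control and 3.04 to 4.78 CPM in KO senescent libraries, so the WT control group was near the floor. Vtn, which encodes vitronectin, measured 16.6, 16.6 and 3.88 CPM in WT control libraries, and its WT decrease of −1.35 (edgeR adjusted p 0.0489) was lost when any 1 library was left out except WT control replicate 3 (0.0542 to 0.149). Cd46, a membrane cofactor gene, differed in the interaction (−1.09, edgeR adjusted p 0.0392) at 1.12 to 2.96 CPM, a call lost in 8 of the 12 fits that left out a library (0.0584 to 0.12).

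Levels of the recognition and terminal genes were mostly near or below detection, apart from the collectin gene Colec12 (182 to 284 CPM). C1qa, C1qb and C1qc, the subunits of C1q that carry C1r and C1s, had at most 0.28 CPM, and Mbl1 was at 0 in all 12 libraries, which allows up to 0.135 CPM at the shallowest library. Of the 7 terminal genes 1 was tested, C8g, at 0.81 to 2.70 CPM, above the floor, and it did not pass in either senescence comparison (log2 fold change 0.02 and −0.48). These terminal and C1q genes, Mbl1 and Colec12 were chosen for mention after their values were seen.

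**Figure D4:**
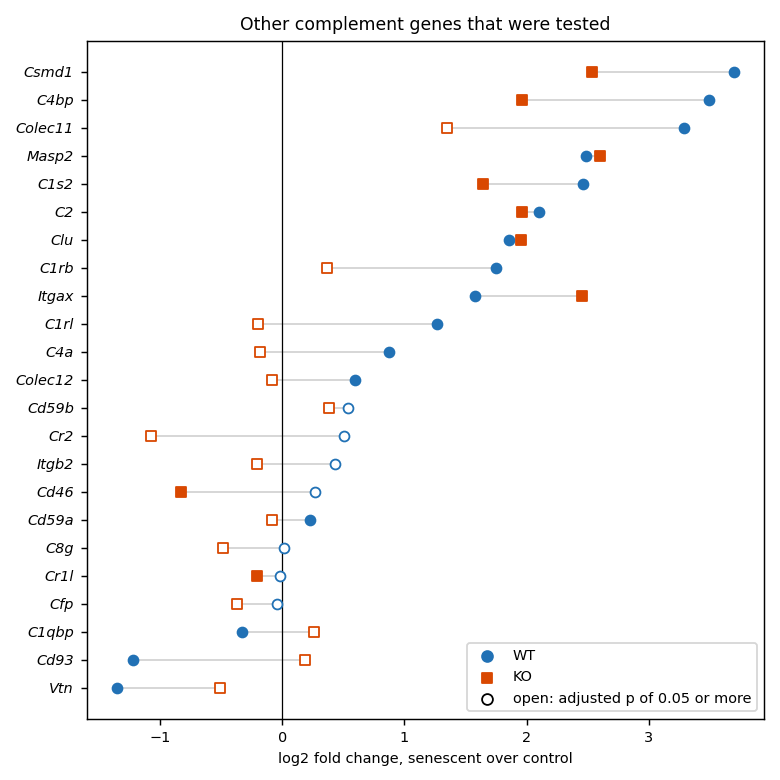
Log2 fold changes (senescent over control) of 23 of the 24 tested genes of the wider complement list in WT cells (circles) and KO cells (squares), filled where the adjusted p was under 0.05 and joined by a grey line. Csmd1, C2 and Clu are filled and to the right of 0 in both genotypes, and C1rl is filled in WT cells only (1.26 against −0.20).

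The genes whose pattern was most like that of each member were found by Pearson's r of log2 CPM over the 12 libraries, among 10944 other genes (10945 for Cfb) whose mean reached 5 CPM. The libraries share senescence and genotype, so the values only describe likeness, with no test. Dapk1 (r = 0.993) and Ncam2 (0.991) were closest to C3, Timp3 (0.994) and Prelp (0.992) to C4b, and Fzd8 (0.989) and Gas6 (0.984) to C1ra. For C1s1 these were Mdk (0.994) and Pcsk5 (0.991), for Cfb Gpm6b (0.994) and Osgin1 (0.989), and for Serping1 Gria3 (0.998) and Ids (0.995). Ccn3 (0.990) and Aplp1 (0.985) were closest to Cd55, and Asap1 (0.989) and Ptprg (0.980) to Masp1. Gas6, which encodes a ligand of TAM receptors, stood at 299 ± 39.7 CPM in the WT control group, 860.02 ± 66.2 in WT senescent, 329 ± 64.4 in KO control and 391 ± 69.5 CPM in KO senescent cells (SD, n = 3), with the same high WT senescent group as C1ra. Ccn3, a matricellular protein gene, stood at 1.06 ± 0.49, 12.1 ± 1.40, 4.39 ± 0.69 and 18.6 ± 3.42 CPM in the same groups, in the same rising order as Cd55.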

How the data were processed

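The deposited values were raw counts, which the authors made from poly(A)-selected paired reads by trimming (Trimmomatic 0.36), mapping to GRCm38 (STAR 2.5.2b) and counting uniquely mapped reads in exons with featureCounts, the tool versions being those of the submitters' processing notes. The use of strand and the annotation release of the counting are not given in the sources used here, so genes with overlapping or near-identical partners are uncertain. Identifiers were matched to GENCODE M21 models (49056 of 49315). Differences were tested with edgeR 4.0.16 under R 4.3.3 (filterByExpr, TMM, robust quasi-likelihood fit over 12 libraries with 1 mean per group), and p-values were adjusted by Benjamini-Hochberg over the 17416 genes kept. SE is the log2 fold change divided by the square root of F. The fit was tested on simulated data. DESeq2 1.42.0 was an alternative.

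Columns were placed in groups by their titles. The members and the lists (47 other complement genes, markers of fibroblasts, chondrocytes, macrophages, adipocytes, keratinocytes and endothelium) were chosen with earlier results of these data known. All members were named. Of the other complement genes, near copies of members were named whatever their value, and otherwise DEGs of any comparison with a mean of at least 1 CPM, except 1 gene that is not reported here. No pair of replicates was identical or agreed within sampling noise (chi-square per gene 3.21 to 19.5). Floors cover counting error only, as the reads carried no molecular identifiers.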

Additional observations from a re-analysis of the deposited data

Results flagged for a closer look

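In 9 complement genes, 4 of the 8 members and 5 of the 24 other genes tested, the senescence response differed between WT and KO cells by the interaction term (edgeR adjusted p under 0.05, log2 scale, KO response less WT response). Of all tested genes 11.7% were lower and 9.24% higher by this term. Among the members these were Serping1 (−1.19, edgeR adjusted p 0.000233), C1ra (−0.84, 0.00125), C1s1 (−1.23, 0.00251) and Cd55 (−0.76, 0.0186). For these 4 the rise was positive in both genotypes and smaller in KO cells, with values per library given above.

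Among the other complement genes they were C1rl (−1.46, edgeR adjusted p 0.0015), Cd46 (−1.09, 0.0392) and, chosen for mention after their values were seen, Colec12 (−0.67, 4.74e-05), Cd59a (−0.31, 0.0369) and C1qbp (0.59, 0.0265). Colec12, a scavenger receptor gene of the collectin family, measured 182 to 193 CPM in WT control, 278 to 284 in WT senescent, 219.8 to 256 in KO control and 203 to 248 CPM in KO senescent libraries. Cd59a, which encodes an inhibitor of the membrane attack complex, measured 33.9 to 38.4, 39.2 to 43.9, 26.7 to 31.1 and 26.4 to 28.3 CPM in the same groups. C1qbp, which encodes a mitochondrial protein first described as a receptor of C1q, was the gene of the 9 with a higher response in KO cells, at 91.7 to 110.2 and 75.6 to 86.5 CPM in WT control and senescent libraries and 71.9 to 96.4 and 89.8 to 109.7 CPM in KO control and senescent libraries. The calls of Cd59a and C1qbp were lost in 8 and 7 of the 12 fits that left out a library (edgeR adjusted p 0.0535 to 0.105 and 0.0531 to 0.0688).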

How the results depend on the processing

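The 7 member DEGs of WT senescence were called in all 12 fits that left out a library. In KO senescence 3 members were DEGs, and the count was 5 with unscaled library totals, 5 with the stricter filter (a minimum count of 50), 8 with no fold threshold and 2 to 5 with a library left out, the highest without KO control replicate 2. Higher DEGs over all genes were 1957 of 17416, beside 2326 of 17416 with unscaled totals and 1075 of 13158 with the stricter filter. Without KO control replicate 2 they were 1953 of 17989. For counts with no fold threshold, here and below, the shares of all genes are those given above for an adjusted p under 0.05. In the interaction 2 members were DEGs, 4 with no fold threshold and 2 to 3 with a library left out. Between control cells 1 member was a DEG, 2 with no fold threshold and 0 to 1 with a library left out (0 without WT control replicate 3). Between senescent cells the count was 0 under edgeR and DESeq2 at any p, since no log2 fold change was over 1 in size, 7 with no fold threshold and 0 to 1 with a library left out. Of the other complement genes, the stricter filter lowered the DEGs from 13 to 6 (WT), from 8 to 4 (KO) and from 2 to 1 (control cells), through fewer genes tested. Interaction DEGs of that list went from 2 to 1 with no filter, to 5 with no fold threshold and to 1 to 3 with a library left out, and counts between control cells to 5 and 1 to 4, and between senescent cells from 3 to 7 with no fold threshold.

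Signs turned in results that were not called. Left out 1 library at a time, the KO response ranged from −0.14 to 2.02 for C1rb and −0.40 to 0.00070 for C1rl, the interaction from −0.12 to 0.075 for Masp1, −0.35 to 0.31 for C2 and −0.044 to 0.28 for Clu, and the difference between control cells from −0.20 to 0.028 for C3 and −0.12 to 0.12 for C1ra. With unscaled totals, which shifted the median of all genes by 0.17 in WT and 0.15 in KO senescence, the KO response of Colec12 was 0.072 and the C1ra difference between control cells −0.0017. The causes of these moves were not tested.

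Replicate numbers were shared across groups. Same-numbered libraries correlated at −0.13 to 0.13 in their deviations, and in no pair of groups did every library correlate best with its own number. Between WT control and WT senescent cells the same-numbered values were 0.015 to 0.108 and the others −0.084 to 0.044. With 3 libraries per group these values do not settle whether the samples were paired. With the replicate block, 3 members were DEGs in KO senescence and 2 in the interaction, as without it. C3 in the interaction (−0.62, edgeR adjusted p 0.0318) and C1s1 between control cells (0.46, 0.014) passed with it. With a block within each genotype, 1 other complement gene was a DEG in the interaction.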

Other observations

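Cr2, which encodes a receptor for C3 fragments best known from B cells, was looked at after its values were seen. It measured 4.38, 4.48 and 0.41 CPM in WT control replicates 1, 2 and 3, 5.13, 3.87 and 4.28 CPM in WT senescent, 0.16, 4.64 and 3.90 CPM in KO control and 3.62, 0.43 and 0.24 CPM in KO senescent libraries. The 4 libraries WT control replicate 3, KO control replicate 1 and KO senescent replicates 2 and 3 thus stood at 0.43 CPM or less and the other 8 at 3.62 CPM or more. Ptprc, the pan-leukocyte gene, measured 3.24 to 4.24 CPM in those 4 libraries and 5.25 to 9.52 CPM in the other 8. The B cell genes Ms4a1, Cd79a and Cd79b were detected in all 12 libraries. Cd79a was lower in the 4 libraries (2.80, 1.96, 1.28 and 1.18 CPM in the order above) than in the other 8 (3.43 to 5.45 CPM). Ms4a1 did not follow this split, at 6.99, 5.56, 2.05 and 2.63 CPM against 4.46 to 7.91 CPM, nor did Cd79b, at 2.71, 3.44, 1.67 and 1.62 CPM against 2.70 to 4.98 CPM.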
